A study of Mus musculus with 64 samples.

Results

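The nuclear-encoded subunits of the respiratory chain were followed in mouse pancreatic tumor cells grown alone or with fibroblasts. Members were chosen by gene symbol alone, as genes of the count table named Ndufa, Ndufb, Ndufc, Ndufs or Ndufv with a number, Sdha to Sdhd, or with a symbol beginning Uqcr, Cox4 to Cox8 or Atp5, leaving out symbols marked as pseudogenes by -ps. This gave 85 of 39017 genes, with 37 assigned by name to complex I, 4 to complex II, 8 to complex III, 18 to complex IV and 18 to complex V.

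The cells were 8 lines of pancreatic tumor cells on a C57BL/6 mixed background. Lines E, H, K, M, N, T and V were clones of a polyclonal line from 1 tumor, which arose in a mouse with a mutant Trp53 allele and a Pdx1-Cre transgene, whose promoter is active in the pancreatic lineage. Each of these 7 lines is thus 1 clone. The KPC1 line was profiled beside them, and its genotype is not given in the labels. Every line was profiled in 4 mono-culture and 4 co-culture libraries. In co-culture, the GFP-expressing tumor cells were sorted from fibroblasts after 48 h, and 64 libraries resulted in all. Sorting of the mono-cultures and the origin of the fibroblasts are not described in the sources used here. The study placed clones E, H and V in a metabolic group 1 and K, M, N and T in a group 2 and asked whether they depend on respiration to different degrees, and KPC1 was in neither group. The libraries of a line were not stated to be separate cultures, so p-values within a line measure only the spread between these libraries.

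The respiratory chain passes electrons from NADH (complex I, NADH dehydrogenase) or succinate (complex II, succinate dehydrogenase) through complex III (the cytochrome bc1 complex) to oxygen at complex IV (cytochrome c oxidase). Complexes I, III and IV pump protons, and complex V (ATP synthase) uses the resulting gradient to make ATP. Most subunits are encoded in the nucleus and a few in the mitochondrial genome, and several complex IV and V subunits have alternative forms encoded by separate genes, called paralogues here, some of which are known from muscle, lung or testis. Some of the 85 genes are named with a complex without being ordinary parts of it. Ndufa4 is now assigned to complex IV, Cox7a2l acts in joining complexes III and IV, Atp5s and Atp5sl are not structural subunits of ATP synthase, and Atp5l2 is annotated as a processed pseudogene.

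Promoters are shown first for members that moved in the same direction with co-culture in many lines. Promoters of mouse GRCm38.p6 from RefSeq, 250 bases before to 50 bases after each start, were found for 66 of the 85 members. 3 motifs of factors known for driving respiratory genes were searched on both strands, namely GCGCA, any base and GCGC in a row for NRF1, CCGGAAG for ETS factors such as GABPA, and AAGATGGCG for YY1. The NRF1 letters were present for 17 of the 66 members (25.8%), beside 5.19% of 27025 genes with a promoter and 11.4% of the 9730 of these that passed the filter on low counts. The ETS letters were present for 16 members (24.2%), beside 9.93% and 19.7% of those 2 sets of genes. The YY1 letters were present for 7 members (10.6%), beside 1.64% and 3.51%. The sequences of Sdhb, Sdhd and Uqcrc1, which were higher in co-culture in all 8 lines, and of Ndufa5, which was lower in 6, are given 5′ to 3′ with the matches in capitals. They lie at chr4:140961021-140961320 (+ strand), chr9:50603800-50604099 (- strand), chr9:108936398-108936697 (+ strand) and chr6:24527477-24527776 (- strand), where Ndufa5 has another start with an overlapping window.
Sdhb: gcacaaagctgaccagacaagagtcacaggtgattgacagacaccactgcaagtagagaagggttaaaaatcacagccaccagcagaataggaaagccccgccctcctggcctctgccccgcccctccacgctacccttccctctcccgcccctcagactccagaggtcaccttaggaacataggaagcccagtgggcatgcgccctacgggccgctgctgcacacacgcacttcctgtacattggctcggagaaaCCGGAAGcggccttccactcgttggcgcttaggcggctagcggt
Sdhd: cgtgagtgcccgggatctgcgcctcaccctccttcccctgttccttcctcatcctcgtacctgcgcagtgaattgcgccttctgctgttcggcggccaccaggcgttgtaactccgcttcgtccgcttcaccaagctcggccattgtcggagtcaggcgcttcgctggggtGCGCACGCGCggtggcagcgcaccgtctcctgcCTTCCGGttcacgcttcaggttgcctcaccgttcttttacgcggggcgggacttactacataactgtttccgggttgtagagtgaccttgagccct
Uqcrc1: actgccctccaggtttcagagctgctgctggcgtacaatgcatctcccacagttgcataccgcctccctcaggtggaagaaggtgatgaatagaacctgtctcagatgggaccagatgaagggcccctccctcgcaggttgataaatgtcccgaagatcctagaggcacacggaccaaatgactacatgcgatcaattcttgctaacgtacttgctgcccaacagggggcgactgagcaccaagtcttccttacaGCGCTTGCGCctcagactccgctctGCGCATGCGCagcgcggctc
Ndufa5: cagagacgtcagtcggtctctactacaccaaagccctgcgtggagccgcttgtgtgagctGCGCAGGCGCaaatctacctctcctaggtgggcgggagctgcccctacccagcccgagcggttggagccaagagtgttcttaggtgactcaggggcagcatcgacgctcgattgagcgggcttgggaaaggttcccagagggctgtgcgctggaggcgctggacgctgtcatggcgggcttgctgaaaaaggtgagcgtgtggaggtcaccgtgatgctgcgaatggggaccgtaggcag
Sdhb held 1 ETS match, Sdhd 1 NRF1 and 1 ETS match, Uqcrc1 NRF1 matches in the last 50 bases of its window and Ndufa5 1 NRF1 match. Each of these examples held a match, so they do not show how common matches were. Sdhb, Sdhd and Uqcrc1 were among 12 members higher in all 8 lines. Among members with a promoter, the NRF1 letters were found for 6 of 14 that rose in co-culture, 2 of 11 that fell and 9 of 38 that did neither in the test described later. In the same order, the ETS letters were found for 4, 0 and 12 members and the YY1 letters for 1, 1 and 5. A match describes the letters in the window and was not tested for binding.

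Library totals were between 11178721 and 21333683 counts (median, 15648009), and 0.637 to 0.966% of a library's counts fell on the 85 genes. Levels are given as CPM (counts scaled to a common library size after TMM normalization), and as the deposited RPKM where different genes are compared, since RPKM corrects for transcript length. Each library was closest to another of the same line and culture. In 2 groups 1 library stood apart. The second co-culture library of KPC1 was the shallowest with 11178721 counts. It held 0.933% of its counts on the members, beside 0.717 to 0.796% in the others of its group. The third co-culture library of E held 0.728% of its counts on the members, beside 0.909 to 0.931% in the others of its group. Less far apart, the first co-culture library of V held 0.966%, beside 0.754 to 0.821%. Of 20 fibroblast markers, 16 were higher and 1 lower in co-culture among 18 tested, and their summed level was 153 to 520.2 CPM in mono-culture and 380.2 to 2563 CPM in co-culture, with Thy1 and Postn at a median of 0 in mono-culture and 12.4 and 48.7 CPM in co-culture. Of 15 epithelial markers, 1 was higher and 4 lower in co-culture among 12 tested, beside 27.2% and 27.4% of all genes. Krt8, Krt18 and Krt19 were abundant in both cultures. Their medians were 1036, 1317 and 540.5 CPM in mono-culture and 764, 1355 and 312 CPM in co-culture, and Krt8 and Krt19 were among those lower. Epcam and Cldn4 were near 0 (0.130 and 0.0570 CPM in mono-culture). The fibroblast markers moved with every co-culture result below and their part in it was not tested. In sorted bulk samples, a change in the RNA of each cell and a change in which cells were collected cannot be told apart.

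Within mono-culture, the levels per length spread more widely in complexes I, IV and V than in II and III. In complex I, Ndufa6 was highest, with a median over lines of 213 RPKM, and Ndufs5 lowest among those tested at 0.335 RPKM. In complex II, Sdhd and Sdhc, the membrane anchors, marked the ends at 63.3 and 21.04 RPKM. In complex III, Uqcr11 was highest at 87.3 RPKM, and the core proteins Uqcrc1 and Uqcrc2 were lowest at 28.4 and 28.6 RPKM. In complex IV, Cox8a was at 216 RPKM, and Cox7a1, the form known from heart and skeletal muscle, at 1.11 RPKM. In complex V, Atp5b, the catalytic beta subunit, was at 199 RPKM and Atp5l at 0.688 RPKM. Low RPKM values need care, because the 2 deposited tables disagreed for some members. For 11 members the CPM and RPKM of the 64 libraries correlated at under 0.95 across libraries, and 30 members have near-identical annotated copies elsewhere in the genome. Atp5l has 12 such copies and its counts per exon length exceeded its RPKM by 5.73 times, and the ratio was 9.55 for Ndufs5 and 34.1 for Atp5g2, beside 1.07 for Atp5g3. Levels of these genes are uncertain.

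**Figure D1:**
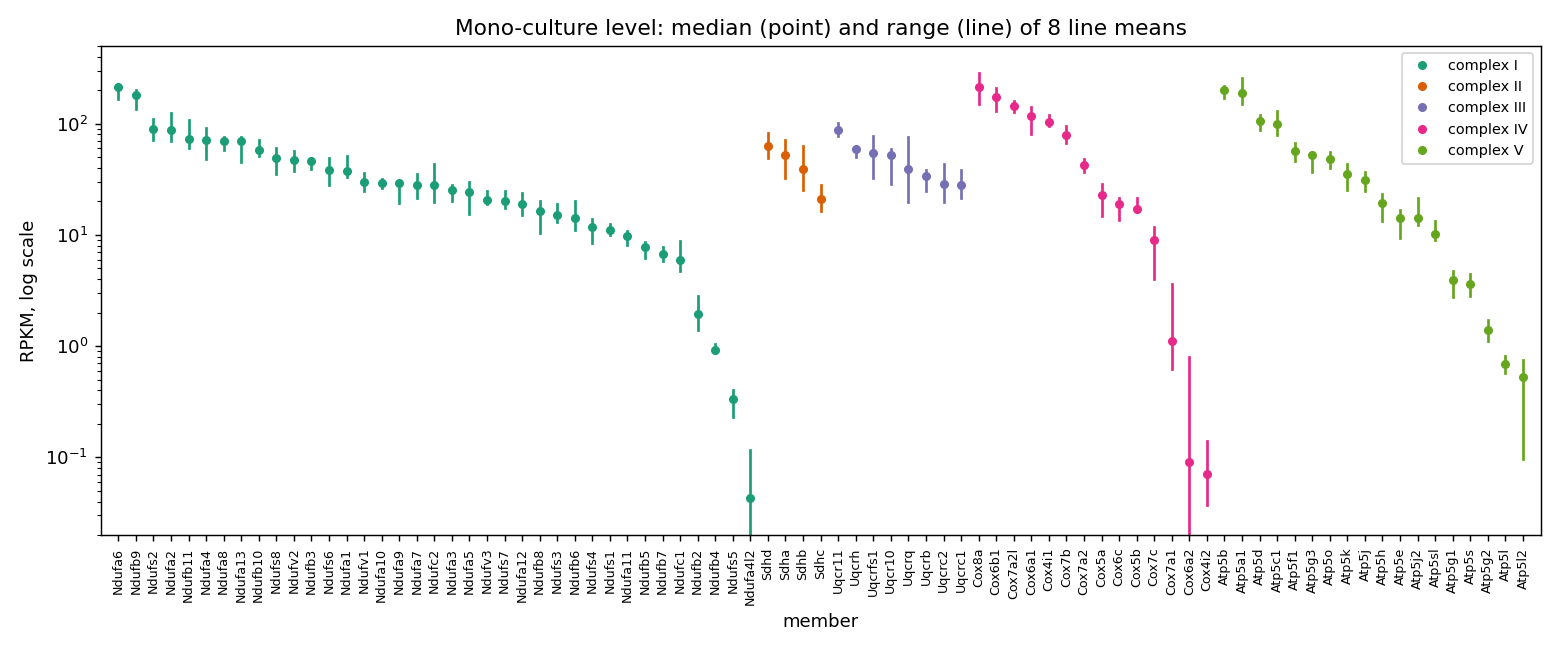
Mono-culture level of each member in RPKM on a log axis, colored by complex; points are the median and vertical lines the range of 8 line means (4 libraries each), and vertical lines cut by the lower edge go on to a line mean below the axis. Atp5b (199 RPKM), Cox8a (215.5) and Ndufa6 (213) sit at the top of their complexes, and Cox6b2, Cox7b2, Cox8b and Cox8c, whose median was 0, are not drawn.

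Nearly all members differed among the 8 lines in mono-culture. Of 77 members tested, 71 were called at an adjusted p under 0.1, beside 96.9% of all 13624 genes tested, so a difference among lines was the rule for all genes. The called members were 33 of 36 in complex I, all 4 in complex II, 6 of 8 in complex III, 11 of 12 in complex IV and all 17 in complex V. Among the members tested, the widest ranges of line means belonged to Cox7a1, Uqcrq, Cox7c, Uqcrfs1, Sdhb and Sdha, while Ndufa10, Sdhd, Uqcr11, Cox7a2 and Atp5b had the narrowest range of their complex.

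Uqcrq, a small subunit of complex III, varied most among the well-expressed members. Its line means were 39.8 CPM in M, 43.9 in K, 75.01 in T, 77.8 in V, 79.4 in H, 80.8 in E, 119 in N and 146 in KPC1, a span of 1.89 on the log2 scale (adjusted p = 6.8e-10, edgeR's quasi-likelihood test). K and M were low, N and KPC1 high, and the other 4 lines lay close together in between. Uqcrfs1, the Rieske iron-sulfur protein, was lowest in N (45.3 CPM) and highest in M (113 CPM), and the catalytic flavoprotein of complex II, Sdha, had the same extremes (129.9 and 299 CPM). Its partner Sdhb, the iron-sulfur subunit, was instead lowest in M (64.5 CPM) and highest in KPC1 (156 CPM). Line N also had the lowest Cox7c, 20.6 CPM beside 54.5 CPM in E. Other wide ranges were those of Uqcrc2 (52.3 CPM in KPC1 to 114 in E), Ndufc2 (16.6 in KPC1 to 33.99 in E), Ndufb2 (7.13 in E to 14.1 in M), Ndufa5 (17.6 in KPC1 to 34.4 in N) and Cox5a (31.5 in T to 59.5 in V). Atp5b, by comparison, stayed between 806 and 999.7 CPM.

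No member was called between the metabolic groups. In the comparison of clones E, H and V with K, M, N and T in mono-culture, edgeR called 0 of 78 members, beside 0% of 14829 genes. At an unadjusted p under 0.05, 2 members and 766 genes passed. Without line E the same test called 217 genes and 0 members, with 2104 genes and 7 members at an unadjusted p under 0.05, and without V it called 0 genes and had 320 genes and 0 members at that level. DESeq2 called 0 members and 157 genes, and limma on log2(RPKM + 1) called 0 members and 0 genes. The median difference of the members was 0.10 on the log2 scale, group 1 minus group 2, beside -0.01 over all genes, and 51 of 78 were positive. The line means of the groups did not overlap for 7 members, of which 4 were higher and 3 lower in group 1, beside 5.49% of all genes. The smallest p-values belonged to Atp5l, Sdhc, Ndufa2, Ndufb8 and Cox8a. Atp5l was at 23.6, 32.5 and 28.6 CPM in E, H and V and at 21.2, 19.4, 21.4 and 19.5 CPM in K, M, N and T, with every line of group 1 above every line of group 2 (log2 difference, 0.47 ± 0.18 SE; adjusted p = 0.89, edgeR), though this is a gene with copies. Sdhc ran the other way, with 58.7, 71.2 and 66.9 CPM against 81.4, 82.1, 97.1 and 79.2 CPM, every line of group 1 being lower (-0.38 ± 0.15 SE; adjusted p = 0.89, edgeR). Ndufa2, Ndufb8 and Cox8a differed by 0.41, -0.42 and -0.42. A p that misses the threshold with 3 clones against 4 does not show that the groups were alike.

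With co-culture, members rose and fell side by side in complexes I, III, IV and V, and in complex II none fell. Across the 8 lines, 33 of 78 members were called, 20 higher and 13 lower, beside 54.6% of all 14478 genes (27.2% higher and 27.4% lower). The share of members called was below that of all genes. Without the second co-culture library of KPC1, 19 rose and 15 fell, and without the third of E 20 and 13. With libraries of title number 43 or lower alone, here called the first series of sample numbers, 19 rose and 13 fell. The titles themselves mark no such split, and it is not balanced over lines and cultures. That fit left K out, since all its mono-culture libraries have higher numbers, and KPC1 kept 1 mono-culture library. The median difference of the members was 0.05 on the log2 scale, co-culture minus mono-culture, beside -8.9e-04 over all genes. In complex I, 8 members rose and 8 fell of 36 tested (median, 0.02). In complex II, 3 of 4 rose and none fell (median, 0.22). In complex III, 2 rose and 2 fell of 8 (median, -0.08), in complex IV 4 rose and 1 fell of 13 (median, 0.06), and in complex V 3 rose and 2 fell of 17 (median, 0.04). By the sign of the difference within each line, 12 members were higher in all 8 lines and 0 were lower in all 8, beside 14.7% and 12.5% of 14134 genes.

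The largest rise among well-expressed members was that of Uqcrq, at 39.8 to 146 CPM (median, 78.6) over the line means in mono-culture and 54.7 to 224 CPM (median, 144) in co-culture. The gene (ENSMUSG00000044894) lies at chr11:53427922-53430831 on the minus strand of GRCm38. Line E went from 88.02, 102, 73.6 and 59.6 CPM in its 4 mono-culture libraries to 223, 182, 169.5 and 246 CPM in co-culture. In V the mono-culture libraries were at 83.6, 82.5, 86.96 and 58.1 CPM and the co-culture libraries at 222, 169, 181 and 129 CPM. In 7 of 8 lines every co-culture library lay above every mono-culture library, K being the exception. The log2 difference was 0.74 ± 0.12 (SE, n = 8 lines; adjusted p = 0.0021, edgeR's quasi-likelihood test). KPC1 held 137, 142, 155 and 151 CPM in mono-culture and 170.2, 367, 176 and 181 CPM in co-culture, where the second library was the highest of all, and without that library the difference over 8 lines was 0.71 (adjusted p = 0.003).

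**Figure D2:**
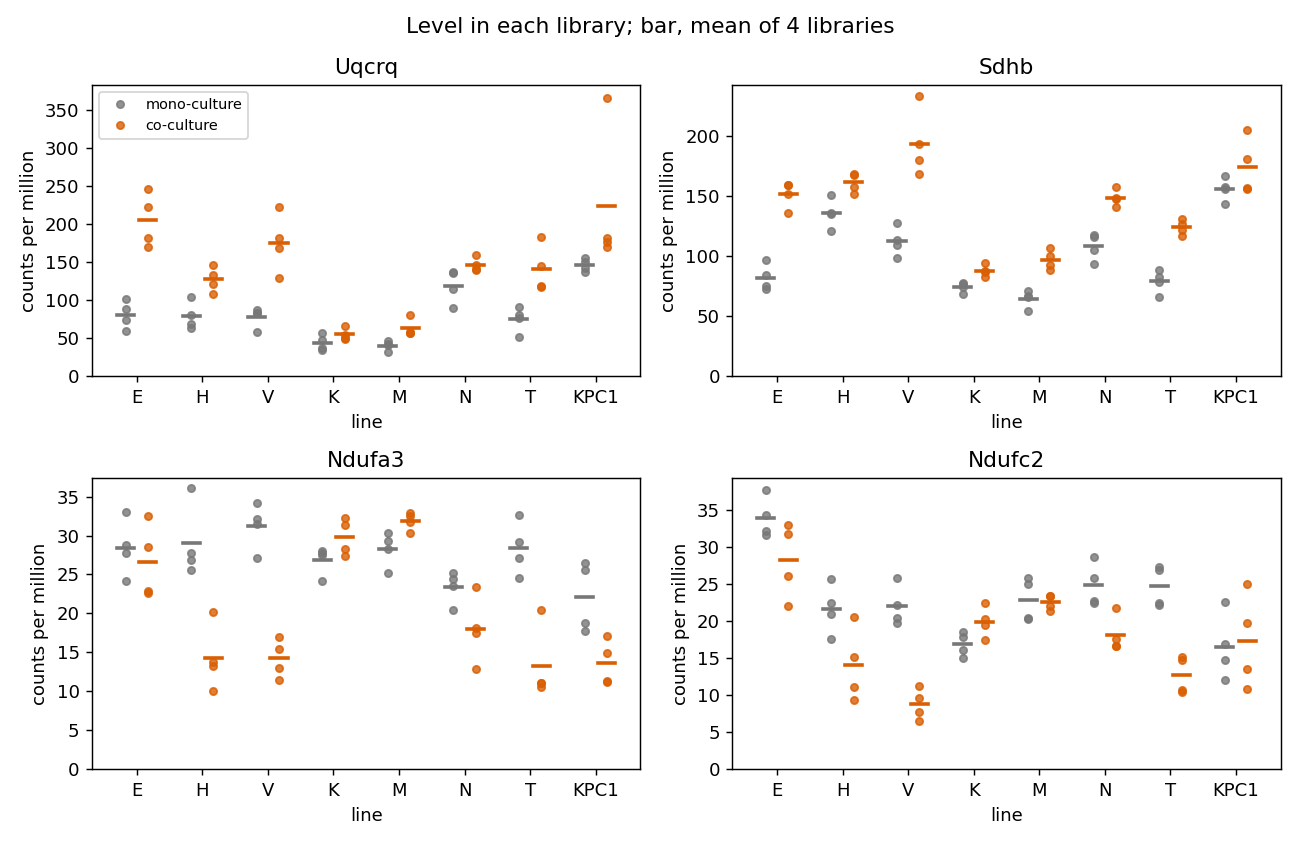
CPM of Uqcrq, Sdhb, Ndufa3 and Ndufc2 in each library of 8 lines, gray for mono-culture and orange for co-culture, with a bar at the mean of 4 libraries. Uqcrq and Sdhb lie higher in co-culture in all 8 lines by their means, whereas the means of Ndufa3 and Ndufc2 lie lower in H, V, N and T and not in K.

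In complex II, the transcripts of the iron-sulfur and membrane subunits were called higher, and that of Sdha was not called. Sdhb was at 64.5 to 156 CPM (median, 94.9) in mono-culture and 87.8 to 194 CPM (median, 150.0) in co-culture, a difference of 0.50 ± 0.09 (adjusted p = 0.0027), and its libraries did not overlap in 7 of 8 lines. In M, where it started lowest, the mono-culture libraries held 65.7, 66.97, 71.2 and 54.1 CPM and the co-culture libraries 88.3, 92.7, 107 and 99.7 CPM. KPC1, where it started highest, was the line with overlapping libraries. The membrane anchor Sdhd rose by 0.30 ± 0.06 (adjusted p = 0.0038) with a median line level of 83.9 CPM in mono-culture and 102 CPM in co-culture, and the other anchor, Sdhc, by 0.14 ± 0.05 (adjusted p = 0.049). The call of Sdhc was lost without line E (adjusted p = 0.107), line N (0.116) or replicate 1 (0.102), at log2 differences of 0.11, 0.12 and 0.12. Sdha, which carries the flavin, had 129.9 to 299 CPM (median, 218) and 139 to 291 CPM (median, 226) in the respective cultures, with a difference of -0.004 ± 0.05 (adjusted p = 0.95).

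Complex III was split between its 2 core proteins. Uqcrc1 rose by 0.28 ± 0.05 (adjusted p = 0.0028), from 99.8 to 169 CPM (median, 123) to 119 to 196 CPM (median, 157), and was higher in all 8 lines. Uqcrc2 fell by 0.35 on the log2 scale, ± 0.13 (adjusted p = 0.048). In T its mono-culture libraries held 71.5, 85.4, 86.7 and 70.2 CPM and its co-culture libraries 45.7, 45.4, 36.1 and 32.1 CPM, and the cultures were likewise separate in E, V and N. Its call was lost without line H (log2 difference, -0.32; adjusted p = 0.102), V (-0.28; 0.112), T (-0.26; 0.109) or replicate 3 (-0.32; 0.133). Uqcrb, the ubiquinone-binding protein, fell by 0.31, ± 0.10 (adjusted p = 0.032). Uqcrfs1 differed by 0.10 ± 0.06 (adjusted p = 0.21) and Uqcr11 by -0.15 ± 0.10 (adjusted p = 0.24).

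Complex I held as many members that fell as members that rose. Ndufa3, an accessory subunit, was at 22.1 to 31.2 CPM (median, 28.3) in mono-culture and 13.3 to 31.8 CPM (median, 16.1) in co-culture, a difference of -0.52 ± 0.17 (adjusted p = 0.035). In V it went from 32.1, 34.2, 27.1 and 31.5 CPM to 15.4, 17.02, 11.4 and 12.97 CPM, whereas K held 24.2, 27.7, 27.99 and 27.5 CPM in mono-culture and 32.2, 31.4, 28.3 and 27.4 CPM in co-culture. The libraries of the 2 cultures were separate, with co-culture lower, in H, V, T and KPC1 and overlapped in the other 4 lines. Ndufa5 fell by 0.43, ± 0.14 (adjusted p = 0.03), and Ndufc2, of the membrane arm, by 0.43, ± 0.17 (adjusted p = 0.058). The call of Ndufc2 was lost without line H (log2 difference, -0.39; adjusted p = 0.121), V (-0.30; 0.115), N (-0.43; 0.105), T (-0.35; 0.137) or replicate 3 (-0.37; 0.127). The other members that fell were Ndufv2, Ndufa1, Ndufb11, Ndufv3 and Ndufb10, at -0.36 to -0.17. Ndufb6 led those that rose, from 7.83 to 13.9 CPM (median, 9.47) to 9.28 to 19.8 CPM (median, 12.8) (0.46 ± 0.09; adjusted p = 0.0033), and was higher in all 8 lines. Ndufs6 followed at 0.24 ± 0.07 (adjusted p = 0.019) and Ndufa11 at 0.21 ± 0.06 (adjusted p = 0.021). Ndufb8, Ndufa7, Ndufv1 and Ndufb9 rose by 0.18 to 0.13. Ndufa10 rose by 0.13 ± 0.05 (adjusted p = 0.062), a call lost without line E, V, N or KPC1 or replicate 3 (log2 difference, 0.10 to 0.13; adjusted p, 0.112 to 0.159).

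In complex IV, Cox5a was the member called in each of the 8 lines, in K at an adjusted p of 0.08 by edgeR. That call in K was absent without replicate 1, without replicate 2 and without the filter on low counts, where 0 members were called in K. Cox5a had 31.5 to 59.5 CPM (median, 47.6) in mono-culture and 53.2 to 78.98 CPM (median, 65.6) in co-culture, a difference of 0.47 ± 0.07 (adjusted p = 0.0013). T, where it started lowest, went from 29.6, 38.4, 32.4 and 25.7 CPM to 41.97, 66.6, 48.9 and 55.2 CPM. Cox4i1, the common form of subunit 4, rose by 0.16 ± 0.05 (adjusted p = 0.024) and Cox6a1 by 0.13 ± 0.05 (adjusted p = 0.049), the latter lost without line V, M or N (log2 difference, 0.11, 0.12 and 0.13; adjusted p = 0.109, 0.102 and 0.106). Cox7c fell by 0.17, ± 0.07 (adjusted p = 0.074), with no call without line E, H, V, M or T or replicate 4 (log2 difference, -0.17 to -0.12; adjusted p, 0.108 to 0.188). Cox6b1 was at 152 and 143 CPM (median of lines; -0.14 ± 0.07; adjusted p = 0.126), and became a call without line K, line M or the second co-culture library of KPC1 (adjusted p = 0.088, 0.072 and 0.097; log2 difference, -0.17, -0.17 and -0.15).

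In complex V, Atp5b rose by 0.15 ± 0.05 (adjusted p = 0.027) from a median line level of 901 CPM to 1005 CPM, and Atp5c1, the gamma subunit of the rotor, by 0.20 ± 0.05 (adjusted p = 0.014). Both were higher in all 8 lines. Atp5s rose by 0.38 ± 0.10 (adjusted p = 0.011) at a low level of 5.63 and 6.87 CPM. Atp5j2, a subunit of the membrane part, fell by 0.37, ± 0.12 (adjusted p = 0.033), and its libraries were separate in H, V and T.

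**Figure D3:**
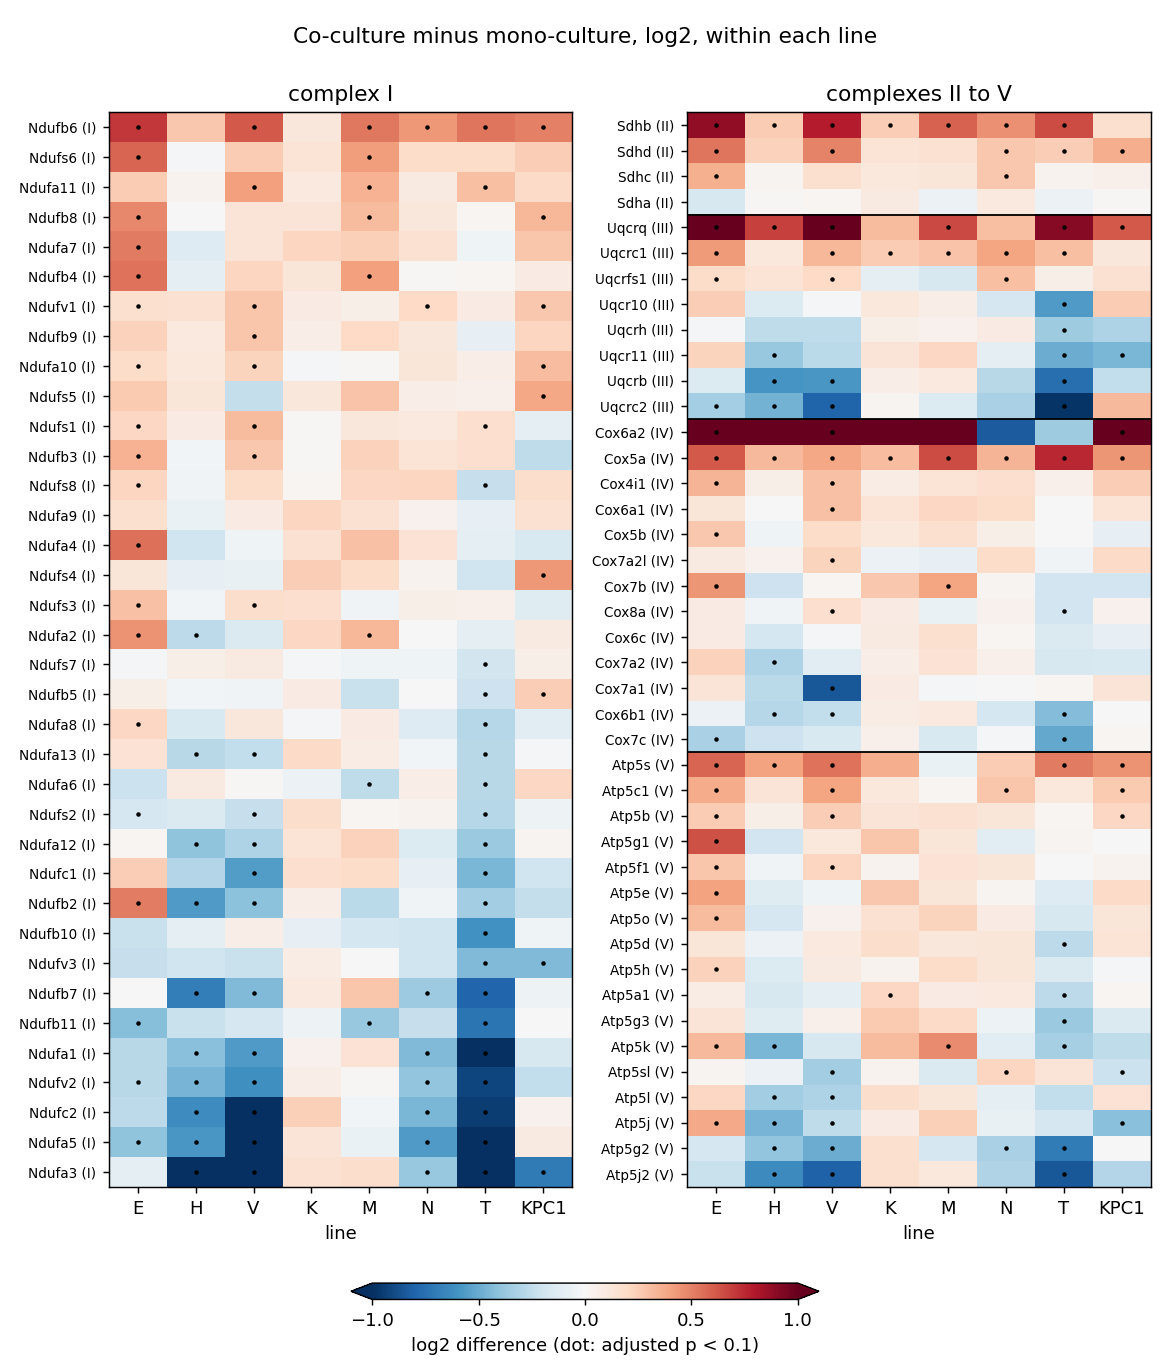
Co-culture minus mono-culture on the log2 scale (color, cut at -1 and 1) of each of 78 tested members in each of 8 lines; dots mark an adjusted p under 0.1 within that line, complex I is on the left and complexes II to V on the right, ordered within a complex by the difference across lines. Sdhb, Uqcrq and Cox5a are red along their whole rows, while Ndufa3, Ndufa5 and Ndufc2 are blue in H, V, N and T and pale in K and M.

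The response of the members was not the same from line to line. A test of the difference in response among the 8 lines called 46 of 78 members, beside 71.3% of 14134 genes. Those called were 23 of 36 in complex I, 1 of 4 in complex II, 6 of 8 in complex III, 4 of 13 in complex IV and 12 of 17 in complex V. Without replicate 3 the count was 27, beside 57.4% of genes, and without the third co-culture library of E it was 51, beside 72.1%. Ndufa3 was among them (adjusted p = 6.3e-07, edgeR), with -1.14 ± 0.17 in V and 0.17 ± 0.17 in M, as was Uqcrc2 (6.0e-05), with -0.98 ± 0.17 in T and 0.32 ± 0.16 in KPC1. Cox5a was not (adjusted p = 0.120), with values between 0.31 ± 0.12 in K and 0.75 ± 0.13 in T.

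Counted within each line, E and T lay at opposite ends. In E, 36 members were higher and 6 lower of 78, beside 61.3% of all genes called in that line (32.1% higher and 29.2% lower), and the median of the members was 0.21 beside 0.03 over all genes. Without the third co-culture library of E, the line had 44 higher and 1 lower, beside 58.9% of genes. In T, 9 were higher and 33 lower, beside 62.2% (31.5% higher and 30.7% lower), with a median of -0.16 beside 0.00102. H had 4 higher and 20 lower, beside 44% of genes (21.4% and 22.6%), and V had 23 and 20, beside 61.5% (30% and 31.5%). M had 12 higher and 2 lower, beside 38.9% (21.6% and 17.3%). N had 10 and 7, beside 37.4% (20% and 17.4%), and K had 4 and 0, beside 20.5% (12.5% and 8.02%). KPC1 had 14 higher and 5 lower, beside 39.2% (20.1% and 19%), but without its second co-culture library 5 were higher and 12 lower, so its direction rested on that library. With library totals in place of TMM, KPC1 had 9 higher and 12 lower, N 6 and 10 in place of 10 and 7, and V 18 and 21 in place of 23 and 20. With the series of sample numbers as a covariate, V had 17 and 19. Leaving out replicate 4 left 2 members in M, both higher, leaving out replicate 1 or 2 left 0 in K by edgeR (4 and 7 at an unadjusted p under 0.05), where leaving out replicate 3 or 4 left 2, both higher, and leaving out replicate 2 left 5 higher and 7 lower in H and 6 and 1 in N. Leaving out replicate 3 left 2 higher and 13 lower in H, 3 and 5 in N and 7 and 20 in T. In E, leaving out replicate 1 or 4 left 22 higher and 5 lower or 24 and 2. In N, leaving out replicate 4 left 10 and 1, and in V, leaving out replicate 1 left 11 and 22.

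**Figure D4:**
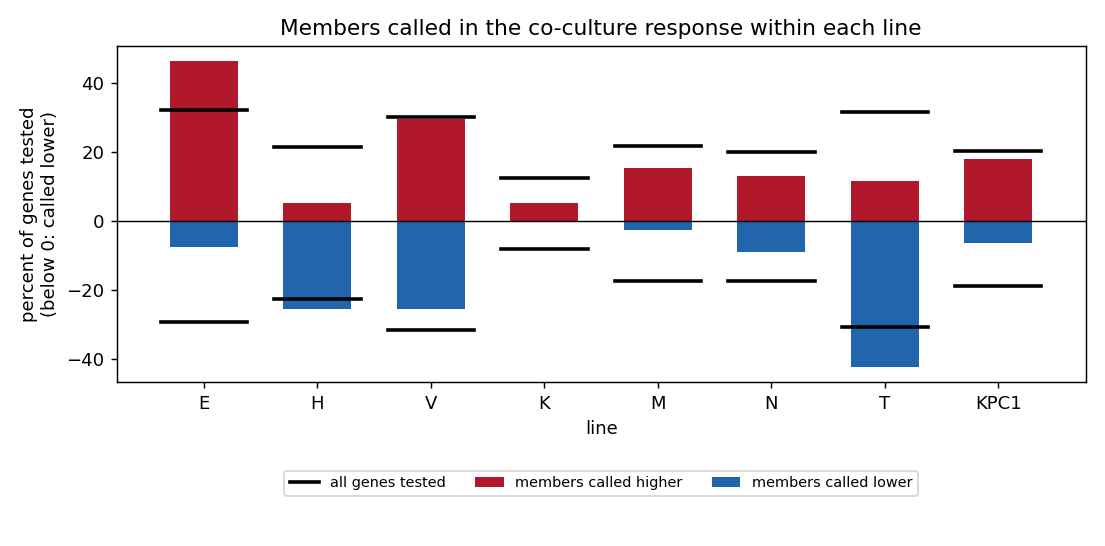
Percent of tested members called higher (red, above 0) or lower (blue, below 0) in co-culture within each line, with black lines at the percent of all tested genes called in the same direction. E passes its black line for higher, H and T pass theirs for lower, and V, K, M, N and KPC1 lie inside both lines.

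Between the metabolic groups, no member was called for a difference in its response to co-culture. The test of the difference in response between group 1 and group 2 called 0 of 78 members, beside 0.00637% of 15700 genes. At an unadjusted p under 0.05, 1 member and 1196 genes passed. Without line E the test called 48 genes and 0 members, with 1 member at an unadjusted p under 0.05. DESeq2 called 0 members and 193 genes, and limma on log2(RPKM + 1) called 0 members and 0 genes. That member was Uqcrq, with responses of 1.34 ± 0.20, 0.68 ± 0.20 and 1.17 ± 0.20 in E, H and V and 0.32 ± 0.20, 0.66 ± 0.20, 0.30 ± 0.20 and 0.91 ± 0.20 in K, M, N and T (difference, 0.53 ± 0.21 SE; adjusted p = 0.66, edgeR). The next smallest p-values were those of Sdhd, Cox6a2, Atp5c1 and Ndufc2, with differences of 0.23, 1.36, 0.18 and -0.44. Ndufa3, Ndufa5 and Ndufc2 were each called lower in H and V of group 1 and in N and T of group 2. With so few clones in each group, a p that misses the threshold does not show that the groups responded alike.

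The balance of paralogue forms was compared family by family. The share of a form in the summed RPKM of its family was compared between cultures by an exact sign-flip permutation test over 8 lines (two-sided, smallest possible p of 0.0078), and after adjustment over 16 forms 0 were called, with a lowest adjusted p of 0.125, and 5 had an unadjusted p under 0.05 (Ndufa4, Ndufa4l2, Cox6b1, Cox6b2 and Atp5g2). With 16 forms, a single form at the smallest possible p reaches only 0.125, so that 1 form alone could not be called on RPKM, and the 2 forms of a pair of genes share 1 p. On shares of counts, Ndufa4, Ndufa4l2, Cox6b1, Cox6b2, Atp5g1 and Atp5g2 passed the threshold (adjusted p = 0.083 for each, exact permutation test), by at most 0.0458 percentage points in the first 4. In most families the common form made up nearly all of the signal in both cultures. The lowest line mean in mono-culture was 99.8% for Ndufa4, 99.9% for Cox4i1, 99.3% for Cox6a1 and 99.99% for Cox8a. Cox6b1 and Cox7b stood at 100% in mono-culture.

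Apart from Cox7a1, the forms known from other tissues were near the limit of detection. Ndufa4l2, known as a hypoxia-induced relative of Ndufa4, reached at most 4 counts in a library, Cox4i2, the lung form, 5 counts, the testis form Cox6b2 3 and Cox8b 1 count in 1 library. Cox7b2 and Cox8c had 0 counts in all 64 libraries, which allows a level of up to 0.00300 CPM over all libraries together (3 counts, for counting error only). These genes and the pseudogene Atp5l2 (at most 5 counts) were the 7 members not tested. Cox6a2, the muscle form of subunit 6a, was called higher in co-culture (1.13 ± 0.49; adjusted p = 0.081) with at most 16 counts in a library. In KPC1 it was at 0, 0.0648, 0.228 and 0 CPM in mono-culture and 0.532, 1.13, 0.372 and 0.570 CPM in co-culture, and in N at 0.975, 0.148, 0.815 and 0.357 and 0.661, 0.140, 0.209 and 0.235 CPM. Its call was lost without line H, V, K, M or KPC1 or replicate 2 (log2 difference, 0.84 to 1.25; adjusted p, 0.108 to 0.183). Cox7a1 was low but had counts in all 64 libraries (median, 12 counts). It was at 0.481 to 2.13 CPM (median, 0.797) in mono-culture, highest in V, and 0.499 to 1.19 CPM (median, 0.796) in co-culture.

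In the subunit 7a family Cox7a2l held a mean of 76.99% in mono-culture and 78.02% in co-culture, a change of 1.03 ± 2.95 percentage points (SD, n = 8 lines; exact p = 0.37). Cox7a2 held 22.3% and 21.3%. In the family of ATP synthase subunit c, which forms the rotor ring and is made from 3 genes with the same mature protein, Atp5g3 held 90.2% of the RPKM in mono-culture, Atp5g1 7.19% and Atp5g2 2.62%. Atp5g2 changed by -0.45 ± 0.38 points and was lower in 8 of 8 lines (exact p = 0.0078, the smallest that 8 lines can give; adjusted p = 0.125), and Atp5g1 by 1.23 ± 1.55 points, higher in 6 (exact p = 0.062). The order of the forms rested on the table used. From counts per exon length, a choice made after the data were seen, Atp5g3 held 47.3%, Atp5g2 41.7% and Atp5g1 the rest, and the changes became 2.91, -4.58 and 1.67 points (adjusted p = 0.071 for each, exact permutation test). The sign for Atp5g3 was thus opposite on the 2 scales. Atp5g1 and Atp5g2 each have 4 annotated near-identical copies, so their levels are uncertain. Counted alone, Atp5g2 fell by 0.27, ± 0.09 on the log2 scale (adjusted p = 0.034, edgeR), and with limma on log2(RPKM + 1) its difference was -0.15 (adjusted p = 0.101). Atp5g3 differed by -0.01 ± 0.07 and Atp5g1 by 0.10 ± 0.09, neither called.

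**Figure D5:**
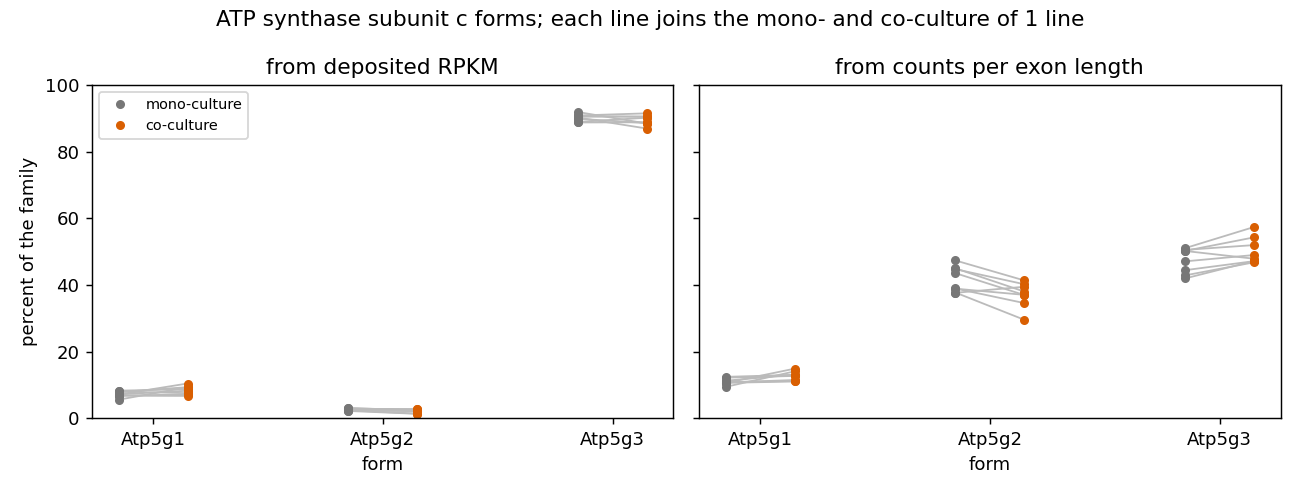
Share of each ATP synthase subunit c form in percent of the family, from the deposited RPKM on the left and from counts per exon length on the right, with gray points for mono-culture and orange for co-culture of 8 lines, joined per line. Atp5g3 holds about 90.2% on the left and 47.3% on the right in mono-culture.

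Genes that work with the subunits were read from lists written for this purpose. Of 42 tested assembly factors, which build the complexes, 14 rose and 8 fell across the 8 lines, beside the 54.6% of all genes called. Tmem70, needed for ATP synthase assembly, rose by 0.51 ± 0.07 (adjusted p = 0.0015, edgeR), and the complex I factors Ndufaf5 and Foxred1 by 0.62 and 0.50. Bcs1l, which inserts Uqcrfs1 into complex III, differed by -0.86 ± 0.28 (adjusted p = 0.03), and Ndufaf1, a complex I factor, by -0.55. Of 6 chain components outside the naming rule, 3 rose and 1 fell, beside the same 54.6%. Cycs, the cytochrome c that carries electrons from complex III to IV, rose by 0.85 ± 0.15 (adjusted p = 0.0027), from a median of 28.2 to 57.9 CPM, and Cyc1, the cytochrome c1 of complex III, by 0.29. Ndufab1 fell by 0.34. Of 13 regulators of mitochondrial gene expression, 6 rose and 1 fell, a share called near the 54.6% of all genes. Polrmt, the mitochondrial RNA polymerase, and Tfb2m, its initiation factor, rose by 0.32 and 0.37, whereas Nrf1 and Gabpa, which bind the motifs named above, differed by 0.09 and -0.03 (adjusted p = 0.33 and 0.68).

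Of 13 tested subunits encoded in the mitochondrial genome, 8 fell and 0 rose across the 8 lines by edgeR, beside 27.4% of all genes lower. The median difference was -0.45 on the log2 scale, beside 0.05 for the nuclear members. mt-Nd5, of complex I, was at a median of 2851 CPM in mono-culture and 1542 CPM in co-culture (-0.74 ± 0.14; adjusted p = 0.0036, edgeR), and mt-Cytb, of complex III, at 6179.8 and 4057 CPM. Within lines, 6 to 8 of 11 tested fell in E, H, V, M, N and T, whereas in KPC1 1 rose and 1 fell (median difference, 0.15) and in K edgeR called 0 (median, 0.27; 3 at an unadjusted p under 0.05). mt-Co2, mt-Co3, mt-Atp6, mt-Atp8, mt-Nd3 and mt-Nd4l had medians of 3.26 CPM or less in mono-culture, beside 14826 CPM for mt-Co1, so the count table holds few reads for them. Of these, mt-Nd4l was among the 8 called lower (-0.49; adjusted p = 0.054, edgeR), with at most 19 counts in a library.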

How the data were processed

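RNA was sequenced as polyA-selected, strand-specific, paired-end libraries. The authors deposited raw counts per gene for 39017 genes and RPKM, reads scaled to transcript length and library size, for 49585 genes, with 37797 in both. The submitters' processing notes name featureCounts, edgeR and mm10, and the aligner and annotation are not given in the sources used here. Counts on members with near-identical copies can depend on how shared reads were assigned.

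Libraries were grouped by line and culture from their labels, and clones by the study's metabolic groups. The full genotype of the mouse is not reported here. Across lines, the counts of the 4 libraries of a line and culture were summed and tested with edgeR 4.0.16 (TMM, filterByExpr, quasi-likelihood test, Benjamini-Hochberg, threshold 0.1, the line as covariate), and within lines 64 libraries were fitted together. The fits were tested on simulated data. Alternatives were RLE, library totals, no filter, DESeq2 1.42.0, limma 3.58.1 on log2(RPKM + 1 or 0.1), a threshold of 0.05, omitted lines or replicates and 1 series of sample numbers alone. Positions and copies came from GENCODE M21 (GRCm38), with copies defined by blastn 2.17.0 as pseudogene transcripts with at least 90% identity over 200 nt. 

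Named genes were every paralogue form, and in each complex up to 3 members that rose and 3 that fell most, the 3 widest and the narrowest range of line means, and the highest and lowest RPKM, with the 5 smallest p-values of each group comparison and members not tested. The other complex I members that rose or fell and the examples from the lists of related genes were named after their values were seen. Members and lists were chosen with earlier results of these data known.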

Additional observations from a re-analysis of the deposited data

Results flagged for a closer look

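The response to co-culture differed among the 8 lines for 46 of 78 tested members by the interaction test, beside 71.3% of 14134 genes. 144 groups of 4 or 8 values were also examined for a value far from the others, of which 10 passed Dixon's critical value, where chance gives about 7.2.

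The third co-culture library of E had 0.728% of its counts on the members, beside 0.909 to 0.931% in the others (gap over range, 0.889). The second co-culture library of KPC1 had the lowest total, 11178721 counts (0.867). The change in share of Cox7a1 was -0.98 percentage points in 1 line, V, beside -0.10 to 0.17 (0.760), and its response in V was -0.85 beside -0.27 to 0.13 (0.594). The shares of Cox8a and Cox8b moved in 1 line, by 0.0141 points each in opposite directions, which rests on 1 count (value of 1 for each). In mono-culture, Ndufb2 was high in M (log2 level, 3.82 beside 2.83 to 3.28; 0.550), Sdha low in N (7.01 beside 7.70 to 8.22; 0.572), Cox6b1 low in N (6.71 beside 7.10 to 7.44; 0.532) and Cox7c low in N (4.36 beside 5.13 to 5.75; 0.554).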

How the results depend on the processing

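The count of members called across the 8 lines, 33 beside 54.6% of genes, became 53 with libraries as replicates and 53 with a term for the series of sample numbers, beside 76.3% and 76.5% of genes. Replicate numbers were shared between cultures, and 24 of 32 correlated best with their own number, though the correlations were small (r, -0.07 to 0.29). The fits without a replicate block did not use this pairing. A replicate block gave 50 members in place of 53 across lines, 73 among lines in mono-culture, 51 for the difference in response, and 46, 26, 45, 6, 19, 20, 42 and 21 within E, H, V, K, M, N, T and KPC1, where the members lower in E went from 6 to 10 at 36 higher in both fits. Leaving out 1 replicate at a time, or the second co-culture library of KPC1 or the third of E, both chosen after the data were seen, gave 27 to 51 members for the difference in response among lines and 26 to 45 in E, 12 to 26 in H, 0 to 4 in K, 2 to 16 in M, 7 to 19 in N and 27 to 42 in T. K had 12 members with library totals, 0 without the filter (7 at an unadjusted p under 0.05), 1 at a threshold of 0.05 and 11 with limma on log2(RPKM + 1), M had 31 with limma, and N had 11 at 0.05. On shares of counts, the changes in points were -0.0458 for Ndufa4, 0.0458 for Ndufa4l2, -0.0157 for Cox6b1, 0.0157 for Cox6b2, 2.79 for Atp5g1 and -4.19 for Atp5g2, each past the threshold. On counts per exon length they were -0.0578, 0.0578, -0.0101, 0.0101, 1.67 and -4.58, and 2.91 for Atp5g3, which turned its direction. Without line E, Ndufa4 changed by -0.0915, Ndufa4l2 by 0.0915 and Atp5g2 by -0.474. For these results the cause was not tested. Shares otherwise kept their side of the threshold, and counts a similar total of members called, in 406 comparisons of a result with an alternative. Direction was not rated for counts, so the shifts between higher and lower in KPC1 and V given earlier are among the 406. Of the single values, 1513 kept their side of the threshold, 46 lost a call, 29 gained one and 1 moved. Both group comparisons called 0 members under every alternative run.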

Other observations

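The 20 members that rose and the 13 that fell were set beside the other tested members by level and transcript. The median level was 90.7 CPM for those that rose, 51.8 CPM for those that fell and 63.9 CPM for the 45 that did neither. The median GC content was 53.4% for those that rose, 50.7% for those that fell and 51.6% for the rest, and the median exon length was 1870 nt, 1131 nt and 1718 nt. Near-identical annotated copies were present for 7 of 20, 4 of 13 and 18 of 45. These are descriptions with no test.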
